A study of Mus musculus with 27 samples.

Results

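The CCN family of secreted matricellular proteins was examined across mouse osteoblast differentiation in culture, together with Ankrd1. The members were the 5 CCN genes Cyr61 (now Ccn1), Ctgf (Ccn2), Nov (Ccn3), Wisp1 (Ccn4) and Wisp2 (Ccn5), plus Ankrd1, given as a list of symbols. No threshold on a measured value selected them, but the list was drawn up with results of these data known. All 6 members were found among the 37991 genes of the 27 profiles, and all 6 passed the filter on low counts, as did 15659 genes in all. The cells came from the skull vault (calvaria) of neonatal C57BL/6J-Col3.6 CFP mice that were 5 to 9 days old. They carried a cyan fluorescent protein (CFP) under the Col3.6 fragment of the type I collagen promoter, were grown for 4 days, and were sorted for CFP before they were returned to culture with ascorbic acid and β-glycerol phosphate. All 9 groups shared this strain, transgene, sort and medium, and differed only in the day of collection (days 2, 4, 6, 8, 10, 12, 14, 16 and 18 of differentiation). There was no untreated arm, so that time in culture and differentiation cannot be told apart. The promoter fragment is also active in collagen-producing cells that are not yet osteoblasts, and nothing in the labels ties a day to a separate culture, animal or litter.

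The labels number 3 profiles for each day as replicates and the paper calls them triplicates, but the profiles of a day carried 1 barcode and came from 3 sequencing lanes. They differed by about the sampling noise, and on these grounds they were treated as 1 sample, a reading of the files that neither source states. Over genes with whole-number counts, the chi-square statistic per degree of freedom was 0.999 to 1.02 within a day, and for single members over all days it was 0.629 (Ankrd1) to 1.27 (Cyr61). Each day was therefore represented by 1 summed library of 22470195 (day 10) to 62009157 (day 12) estimated counts. P-values below measure the scatter of the 9 days around a fitted curve or within windows of 3 days, not the spread between repeated cultures. In these bulk samples, fewer cells of a type and less RNA per cell cannot be told apart.

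CCN proteins are cysteine-rich, modular proteins of the extracellular matrix. They combine an insulin-like growth factor binding motif, a von Willebrand type C motif, a thrombospondin type 1 motif and, in all but Wisp2, a carboxy-terminal cystine knot, and they act mainly by binding integrins, proteoglycans and growth factors. Cyr61 and Ctgf are rapidly induced by serum, mechanical strain and transforming growth factor β, and together with Ankrd1 they are the most widely used readouts of YAP and TAZ, the transcriptional effectors of the Hippo pathway that bind DNA through TEAD factors. Nov is known as an inhibitor of osteoblast differentiation that antagonises bone morphogenetic protein signalling, Wisp1 as a Wnt-responsive gene expressed in osteoblast precursors, and Wisp2 as a gene of connective tissue and osteoblasts. Ankrd1 encodes a nuclear and sarcomeric ankyrin repeat protein and is not a CCN gene.

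On NCBIM37, the build used by the authors, Cyr61 (ENSMUSG00000028195) lies on the minus strand at chr3:145309935-145312949. Ctgf (ENSMUSG00000019997) lies on the plus strand at chr10:24315248-24318489. Nov (ENSMUSG00000037362) and Wisp1 (ENSMUSG00000005124) share chromosome 15, both on the plus strand, at chr15:54577257-54585594 and chr15:66722882-66754763. Wisp2 (ENSMUSG00000027656) lies on the plus strand at chr2:163646597-163658882, and Ankrd1 (ENSMUSG00000024803) on the minus strand at chr19:36186455-36194334. These spans cover the whole gene with its introns, whereas the counts were taken over the exons of its transcripts.

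The RefSeq promoter table (GRCm38.p6) held entries for only 2 of the 6 members, Cyr61 and Ankrd1, and for that reason only these are shown. Both are textbook TEAD-bound genes. The 250 bases before each start site are printed 5′ to 3′ on the strand of the gene, with matches to the TEAD core GGAATG, or its reverse complement CATTCC, in capitals. The Cyr61 stretch is chr3:145649986-145650235 (minus strand) and the Ankrd1 stretch is chr19:36119845-36120094 (minus strand).
Cyr61: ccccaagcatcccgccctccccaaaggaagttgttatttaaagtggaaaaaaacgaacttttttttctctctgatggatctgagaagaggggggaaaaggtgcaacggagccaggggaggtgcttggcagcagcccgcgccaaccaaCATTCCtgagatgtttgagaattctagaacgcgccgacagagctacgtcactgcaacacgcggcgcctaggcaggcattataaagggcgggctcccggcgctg
Ankrd1: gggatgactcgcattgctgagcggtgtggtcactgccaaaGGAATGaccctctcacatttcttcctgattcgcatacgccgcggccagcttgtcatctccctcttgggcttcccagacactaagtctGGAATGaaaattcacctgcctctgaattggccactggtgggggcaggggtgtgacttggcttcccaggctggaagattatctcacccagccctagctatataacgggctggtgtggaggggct
Cyr61 held 1 match, on the antisense strand, from 103 to 98 bases before the start site. Ankrd1 held 2 matches, both on the sense strand, from 210 to 205 and from 123 to 118 bases before it. The same core was present on either strand in 12.6% of the 32851 promoter stretches of this length. Neither stretch held a match to the AP-1 site TGANTCA (6.75% of stretches), the CArG box bound by SRF (1.47%), the SMAD box GTCTAGAC (0.167%) or the TCF core CTTTGA (13.8%), each searched on both strands, and no match overlapped another. A match of letters is a description of the sequence and no evidence of binding in these cells.

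Levels are given as TPM (transcript abundance relative to all transcripts of a profile, a per-length scale on which genes can be compared) after upper-quartile scaling between profiles, as the mean of the 3 lane profiles of a day (n = 3 lanes of 1 library). Cyr61 and Ctgf, the strain- and serum-responsive pair, were highest on day 2 and lower at each collection until day 10. Cyr61 was present at 642 TPM (day 2), 378 (day 4), 250 (day 6), 200 (day 8), 94.99 (day 10), 98.8 (day 12), 119 (day 14), 99.1 (day 16) and 102 (day 18). The days from 10 onwards all lay below the days up to 8, and the level was 6.28-fold lower on day 18 than on day 2. The SD over lanes was at most 4.00% of the mean. In the order of the days by share of counts, the 95% Wilson intervals, which cover counting error only, overlapped between days 10 and 18 and between days 18 and 16, and in no other pair of neighbours. By that share, which is not scaled by the upper quartile, day 12 and not day 10 was the lowest for Cyr61, Ctgf and Wisp1.

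Ctgf was present at 561 TPM (day 2), 269 (day 4), 152 (day 6), 92.6 (day 8), 28.8 (day 10), 31.9 (day 12), 59.5 (day 14), 57.9 (day 16) and 71.1 (day 18). It was lowest on days 10 and 12, whose Wilson intervals overlapped, and higher again on each of the 3 late days. From day 12 to day 14 its level was 1.86-fold higher, and the ratio of Cyr61 to Ctgf was 1.14 on day 2, 3.30 on day 10 and, at the end of the course, 1.44. For Ctgf the assignment of reads to the gene was less certain than for the other members. Its estimated count was a whole number (within 1e-09) in 2 of 27 profiles, against 27 of 27 for each other member. An antisense RNA gene on the opposite strand, Gm15270, overlaps it and received 0.788% (day 2) to 2.45% (day 12) as many counts as Ctgf, and whether the counting used strand is not given in the sources used here. The effective length by which Ctgf counts were divided ranged from 1451 to 2125 bases between profiles, and the lane SD was 15.5% of the mean on day 10 and higher on day 12.

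Nov, the differentiation inhibitor of the family, took the opposite course. Nov was present at 11.7 TPM (day 2), 12.7 (day 4), 27.9 (day 6), 105 (day 8), 382 (day 10), 559 (day 12), 581 (day 14), 579 (day 16) and 526 (day 18). The early days were all lower than any middle day and the level was nearly flat from day 12. Its steepest steps were from day 6 to day 8 (3.75-fold) and from day 8 to day 10 (3.65-fold), and the day 18 level was 44.9-fold that of day 2. The Wilson intervals of days 2 and 4, and those of days 12 and 18, overlapped. On day 14 Nov stood at the 99.1 percentile of the genes with a value above 0, from the 64.2 percentile on day 2.

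Wisp1, known as a Wnt-responsive member, moved over a smaller range. Wisp1 was present at 97.6 TPM (day 2), 85.3 (day 4), 61.8 (day 6), 53.1 (day 8), 36.1 (day 10), 41.4 (day 12), 44.8 (day 14), 38.7 (day 16) and 46.0 (day 18). It was highest on day 2 and lowest on day 10, with a ratio of 2.70, and the 3 late days were all below the 3 early days. The Wilson intervals of 3 of its 8 neighbouring pairs overlapped, all among days 10 to 18.

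Wisp2, the member that lacks the carboxy-terminal module, was highest neither at the start nor at the end. Wisp2 was present at 62.1 TPM (day 2), 107 (day 4), 127 (day 6), 89.2 (day 8), 54.3 (day 10), 70.5 (day 12), 62.7 (day 14), 76.1 (day 16) and 71.1 (day 18). Days 4 to 8 were above all other days, day 6 was the highest, and day 2 lay among the later days. The highest day was 2.34-fold the lowest. Between neighbours in order, the Wilson intervals of 4 of 8 pairs overlapped, linking days 18, 2, 12, 14 and 10.

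Ankrd1, the YAP and TAZ readout outside the family, had the largest decrease among the 6 genes. Ankrd1 was present at 107 TPM (day 2), 93.3 (day 4), 36.1 (day 6), 20.4 (day 8), 4.74 (day 10), 2.44 (day 12), 3.59 (day 14), 2.53 (day 16) and 2.30 (day 18). Every early day was above every middle day and every middle day but day 12 above every late day. Its largest single step was from day 8 to day 10, a 4.31-fold decrease, against 1.15-fold from day 2 to day 4. From day 10 onwards it rested on 92 (day 18) to 149 (day 14) counts a day, against 4642 on day 2, and the lane SD was 15.0% of the mean on day 10 and 19.1% on day 18. The Wilson intervals of days 16, 12 and 18 overlapped in sequence.

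**Figure D1:**
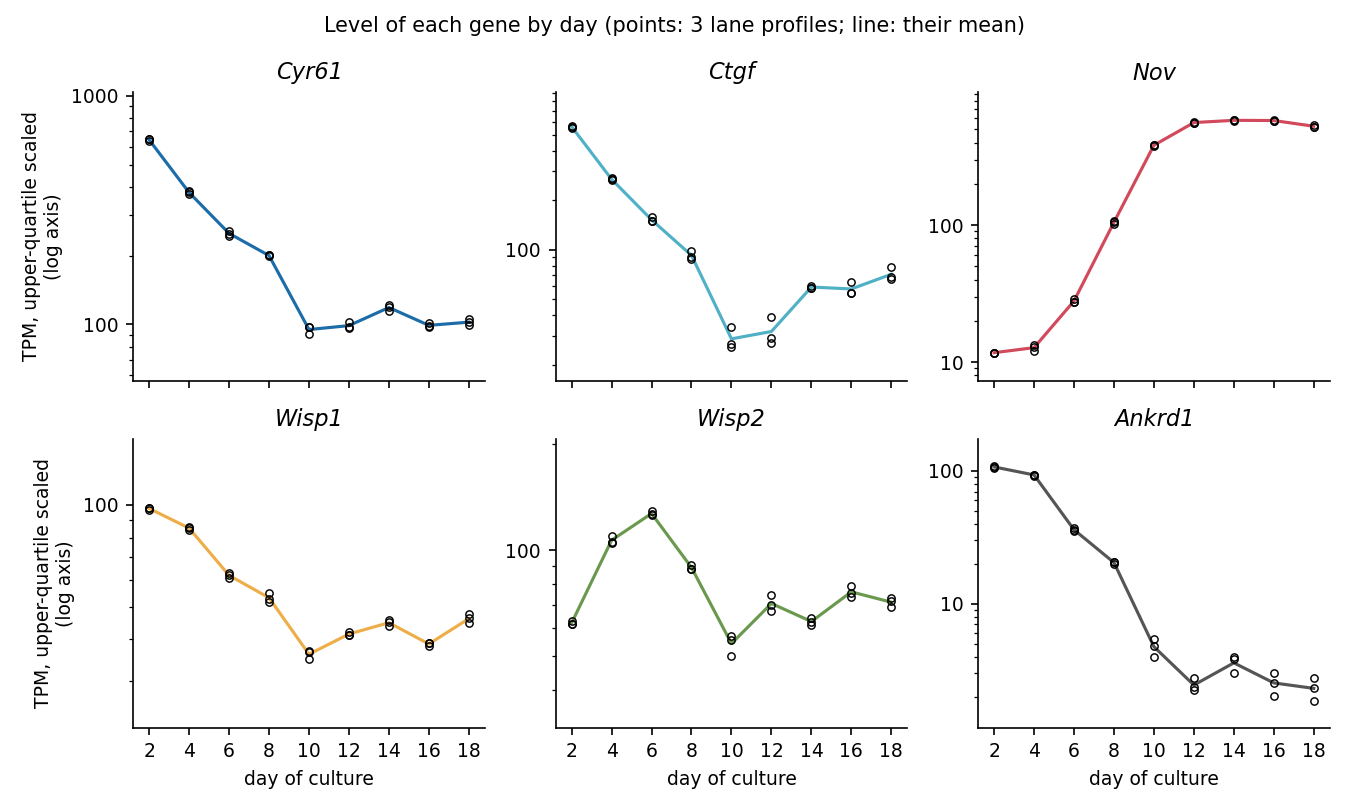
Level of each of the 6 genes by day of culture, as upper-quartile scaled TPM on a log axis that differs between panels. Open points are the 3 lane profiles of a day and the line joins their means. Cyr61, Ctgf, Wisp1 and Ankrd1 are highest on day 2, Nov is highest on day 14 and Wisp2 on day 6.

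Wisp3 (Ccn6), the remaining CCN gene and not a member, was scarcely detected, with 35 counts over all days and at most 0.411 TPM (day 10). On day 16 its count was 0, which allows up to 3 counts in that library. It overlaps Tube1 on the opposite strand.

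The family as a whole exchanged one leading gene for another. On day 2 the summed level of the 5 CCN genes was 1375 TPM, of which Cyr61 made up 46.7%, Ctgf 40.8%, Wisp1 7.10%, Wisp2 4.52% and Nov 0.851%. On day 8 the sum was at its lowest, 540 TPM, and was the most evenly divided, with 37.1% Cyr61, 19.4% Nov, 17.2% Ctgf, 16.5% Wisp2 and 9.83% Wisp1. On day 12 Nov alone made up 69.7% and on day 18 64.4% of a sum of 816 TPM. Nov passed Ctgf by day 8, at a ratio of 1.13, and Cyr61 by day 10, at a ratio of 4.02, from a day 2 ratio of Cyr61 to Nov of 54.9. These shares are descriptions of 1 library a day and carry no test.

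**Figure D2:**
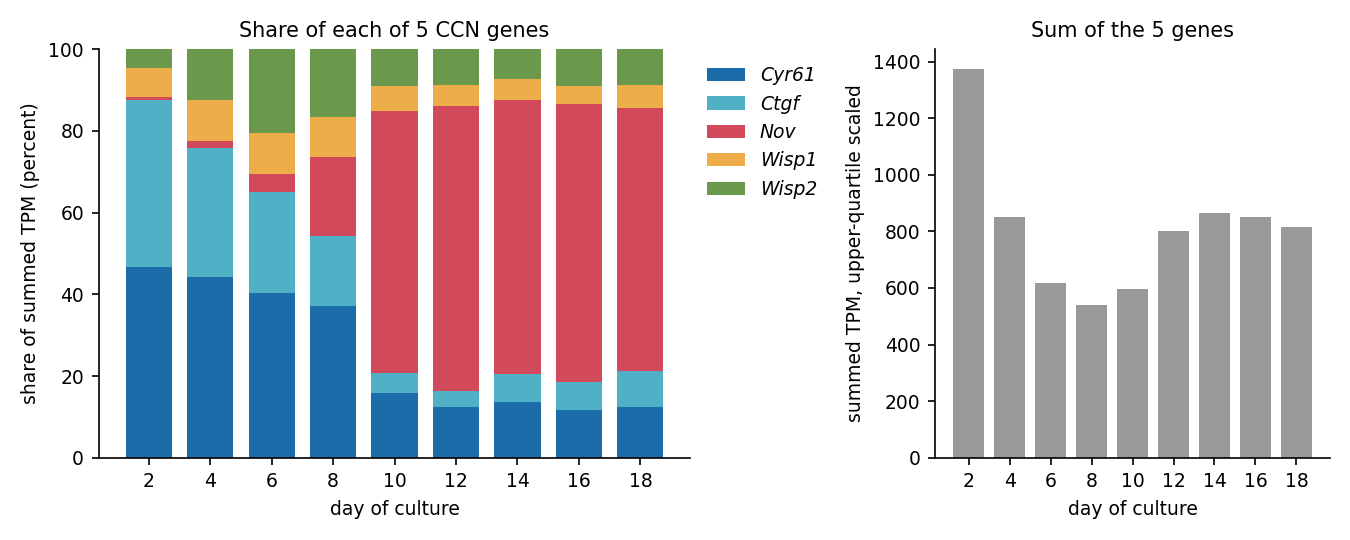
Left, share of each of 5 CCN genes in their summed TPM by day, in percent. Right, that sum in upper-quartile scaled TPM. Cyr61 and Ctgf fill most of the day 2 bar, Nov fills over 60% of each bar from day 10 to day 18, and the sum is lowest on day 8.

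The first comparison asked which members had a rising or falling trend over the course. A straight line in day was fitted for all genes with edgeR's quasi-likelihood test. The change is the log2 difference between days 2 and 18 along that line, so that it can differ from the observed difference for a gene that levels off. The standard error (SE) of a change was derived as its size divided by the square root of edgeR's F statistic. Of the 6 members, 1 rose and 4 fell at an adjusted p under 0.05, where 28.3% of all genes tested rose and 26.1% fell. The median over the members was -2.03 against 0.05 over all genes. Nov rose by 6.80 (SE 1.23, edgeR adjusted p = 0.00105), against an observed day 18 to day 2 log2 ratio of 5.49. Ankrd1 fell by 6.47 (SE 0.65, adjusted p = 5.07e-05), against an observed ratio of -5.54. The decreases of Ctgf (-3.06, SE 0.73, adjusted p = 0.00494) and of Cyr61 (-2.71, SE 0.39, adjusted p = 0.000281) were close in size, and Wisp1 fell least (-1.36, SE 0.24, adjusted p = 0.000896).

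The line for Wisp2 was -0.58 (SE 0.33) and did not pass the test (edgeR adjusted p = 0.154). Its observed day 18 level was 1.15-fold that of day 2 in TPM, opposite in sign to the line, and its peak lay in the early days. Without day 2 the line passed the test (-0.93, adjusted p = 0.0279). A natural spline with 3 degrees of freedom for day, which takes up peaks and plateaus, passed for 6 of 6 members, against 59.1% of all genes. For Wisp2 that call (edgeR adjusted p = 0.0163) was lost without day 4 (adjusted p = 0.121), without day 6 (0.224) and with limma on log2 TPM (0.154), and it rests on those days.

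The second comparison asked when the members changed, between early (days 2 to 6), middle (days 8 to 12) and late (days 14 to 18) windows of 3 libraries each. From early to middle days, 1 member rose and 4 fell, against 17.3% and 13.6% of all genes. Nov rose by 4.30 (SE 0.57, edgeR adjusted p = 0.00412). Ankrd1 fell by 3.12 (SE 0.73, adjusted p = 0.0138), Ctgf by 2.76 (SE 0.59, adjusted p = 0.0101), Cyr61 by 1.72 (SE 0.39, adjusted p = 0.0118) and Wisp1 by 0.91 (SE 0.20, adjusted p = 0.0113). Wisp2 was at -0.48 (SE 0.24, adjusted p = 0.152). Day 10 mattered for these calls, because without it only Nov and Ctgf passed. Cyr61 (-1.55, adjusted p = 0.0531), Wisp1 (-0.81, adjusted p = 0.0513) and Ankrd1 (-2.83, adjusted p = 0.0590) kept their direction and did not pass. Over all genes, 4848 were called with every day and 2142 without day 10, the shallowest library. Without day 12, the deepest, 2173 genes and 5 members were called.

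From middle to late days, no member and 0 of 15659 genes passed edgeR's test (2557 genes at an unadjusted p under 0.05, while DESeq2 called 562 and limma 3, of which none was a member). The estimate for Ankrd1, -1.77 (SE 0.73), had an adjusted p of 0.281. Nov was at 0.66 (SE 0.50), Ctgf at 0.34 (SE 0.56), Cyr61 at -0.35 (SE 0.38), Wisp1 at -0.12 (SE 0.20) and Wisp2 at -0.07 (SE 0.24). These standard errors do not show that the levels stayed the same. From early to late days, 1 member rose and 4 fell, against 26.7% and 24.4% of all genes. Nov rose by 4.96 (SE 0.59, edgeR adjusted p = 0.000644) and Ankrd1 fell by 4.89 (SE 0.80, adjusted p = 0.00133), followed by Ctgf (-2.42), Cyr61 (-2.06) and Wisp1 (-1.03). Wisp2 was at -0.55 (SE 0.24, adjusted p = 0.0800) and passed without day 2 (-0.77, adjusted p = 0.0107) and with DESeq2 (-0.56, adjusted p = 0.0447).

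**Figure D3:**
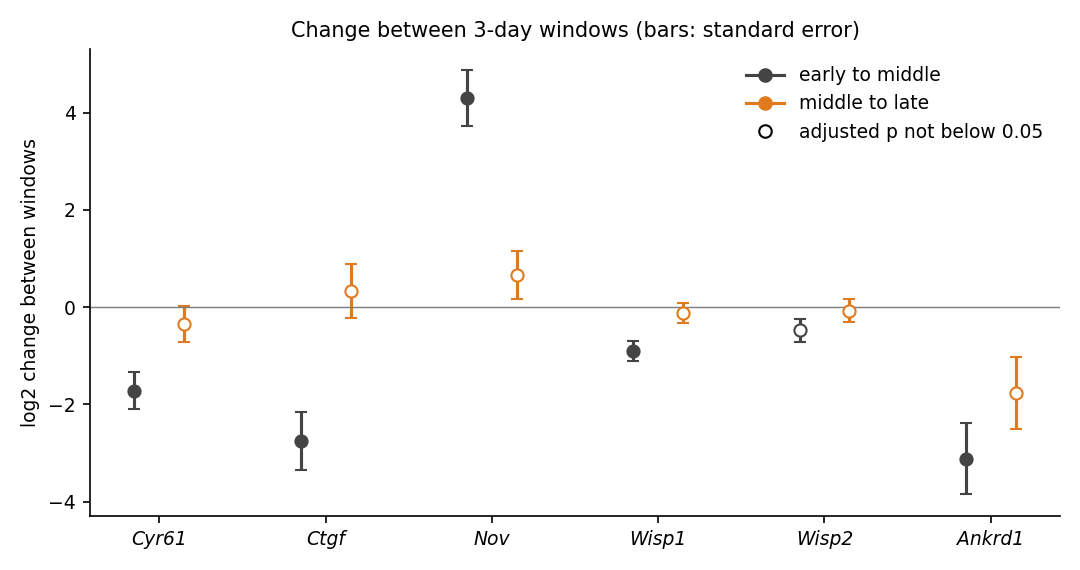
Log2 change of each gene from the early to the middle window (grey) and from the middle to the late window (orange). Bars are standard errors derived from edgeR's F statistic. Filled points passed an adjusted p under 0.05 and open points did not. Nov is the single gene above 0 among the filled points, and all middle to late points are open.

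The members' courses were set beside each other and beside all genes as a description over the 9 days, whose points share the library of a day and its depth. On log2 levels, Cyr61 and Wisp1 were the most alike pair (r = 0.979), followed by Ctgf and Wisp1 (0.973), Cyr61 and Ankrd1 (0.968) and Cyr61 and Ctgf (0.964). Nov and Ankrd1 were nearly mirror images (r = -0.991). Wisp2 was unlike every other member, with r from -0.53 (Nov) to 0.48 (Ankrd1). Any 2 genes with a trend over the course correlate, and 8510 genes had one.

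Among the 7613 genes with a mean of at least 10 TPM, those most like Cyr61 were Actn4, which crosslinks actin filaments (r = 0.995), Pitrm1 (0.995) and Gadd45g (0.993). For Ctgf they were Skil, an inhibitor of SMAD signalling (0.990), and Adk (0.989). Those most like Nov were Pgm5 (0.999), the small leucine-rich proteoglycan Ogn (0.998) and the matrix protein Matn4 (0.998), and Ogn went from 48.1 to 1375 TPM. For Wisp1 they were F3, which is tissue factor (0.990), Abcc1 (0.988) and Tmem85 (0.988). Those most like Ankrd1 were Filip1l (0.997), Nop58 (0.995) and Pdcd6ip (0.995). Wisp2 had no gene at r of 0.95 or more, its nearest being Thy1 (0.942), Rbpj (0.937) and Il4ra (0.922), whereas Nov had 579 such genes, Ankrd1 492, Cyr61 379, Wisp1 234 and Ctgf 76.

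Genes of the pathways around the family were counted by the same line in day, where the median of all genes was 0.05. Of 19 other YAP and TAZ target genes, 11 fell, 4 rose and 4 did not pass, with a median of -1.06, where 26.1% of all genes tested fell and 28.3% rose. Crim1, a transmembrane regulator of growth factors, fell most (-2.88, SE 0.36, edgeR adjusted p = 0.000145), from 66.0 TPM on day 2 to 9.28 on day 18. Axl, a receptor tyrosine kinase, fell from 238 to 69.1 TPM (-2.06). Igfbp3, an insulin-like growth factor binding protein, rose from 1.73 to 109 TPM (5.79, SE 1.37, adjusted p = 0.00489), and Tgfb2 rose from 17.1 to 45.1 TPM (2.02).

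Of 24 genes of the Hippo pathway, 12 fell, 5 rose and 7 did not pass, with a median of -0.27. Amotl2, Lats2 and Ptpn14 are in this list and in that of the target genes, so their falls are counted in both. All 4 TEAD genes fell. Tead4 went from 8.98 to 1.44 TPM (-3.67, SE 0.52, edgeR adjusted p = 0.000271) and Tead1, the most abundant, from 152 to 52.4 TPM (-1.60, SE 0.13, adjusted p = 2.19e-05). The line for Yap1 was 0.05 (SE 0.09, adjusted p = 0.661), with a level of 37.0 TPM on day 2 and 47.8 on day 18. Wwtr1, which encodes TAZ, rose from 30.2 to 58.8 TPM (0.85, SE 0.10, adjusted p = 9.72e-05). The largest rises were in Vgll4 (1.51), a TEAD-binding competitor of YAP, and Amotl1 (1.34), an angiomotin. Yap1, Wwtr1 and the TEAD genes other than Tead1 and Tead4 were named after their values were seen. RNA levels carry no information on the location of YAP and TAZ in the cell.

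Genes of the actin and SRF list fell almost throughout. Of 15, 13 fell, none rose and 2 did not pass (Mkl2 and Tpm1), with a median of -1.63. Of all genes tested, 26.1% fell and 28.3% rose. Filip1l fell from 84.2 to 8.90 TPM (-3.89, SE 0.39, edgeR adjusted p = 5.07e-05), and Actg2, a smooth muscle actin, from 1036 to 84.4 TPM (-3.75, SE 0.27, adjusted p = 1.18e-05). Of the 14 genes of TGF-β signalling, 5 fell, 4 rose and 5 did not pass, with a median of -0.38. Ltbp1, which holds latent TGF-β in the matrix, fell by 1.89 (SE 0.25, adjusted p = 0.000180). Tgfb2 rose, as given above, and Tgfbr2, the type II receptor, rose from 18.2 to 75.1 TPM (1.48).

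Of 15 tested genes for receptors and cofactors reported to bind CCN proteins, 7 fell, 5 rose and 3 did not pass, with a median of 0.03. The largest falls were in Itga5, the fibronectin receptor chain, from 138 to 33.0 TPM (-2.34, SE 0.24, edgeR adjusted p = 5.16e-05), and Hspg2, which encodes perlecan, from 177 to 42.7 TPM (-2.06, SE 0.13, adjusted p = 9.21e-06). The largest rises were in Itgb2 (6.12) and Itgam (5.98), the chains of a leukocyte integrin, from 0.134 to 4.64 TPM and from 0.115 to 7.41 TPM. Itgam is itself 1 of the 7 macrophage markers described next. Of 11 Wnt feedback and pathway genes, 9 were tested and 6 did not pass, with a median of 0.23. The rises were in Dkk1 (5.56) and Nkd1 (4.97) and the fall in Lef1 (-2.62), each at 12.7 TPM or less on every day.

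Among 8 matricellular genes outside the family, 5 rose, 2 fell and 1 (Spp1) did not pass, with a median of 1.09, beside the same shares of all genes (28.3% and 26.1%). Postn, which encodes periostin, rose from 83.1 to 1383 TPM (4.23, SE 1.21, edgeR adjusted p = 0.0131) and Fbln1 from 7.72 to 43.3 TPM (1.62). Tnc, tenascin C, fell from 351 to 101 TPM (-2.66, SE 0.28, adjusted p = 6.18e-05) and Thbs1, thrombospondin 1, from 2095 to 820 TPM (-1.56). Thbs1 is also counted among the TGF-β signalling genes above.

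**Figure D4:**
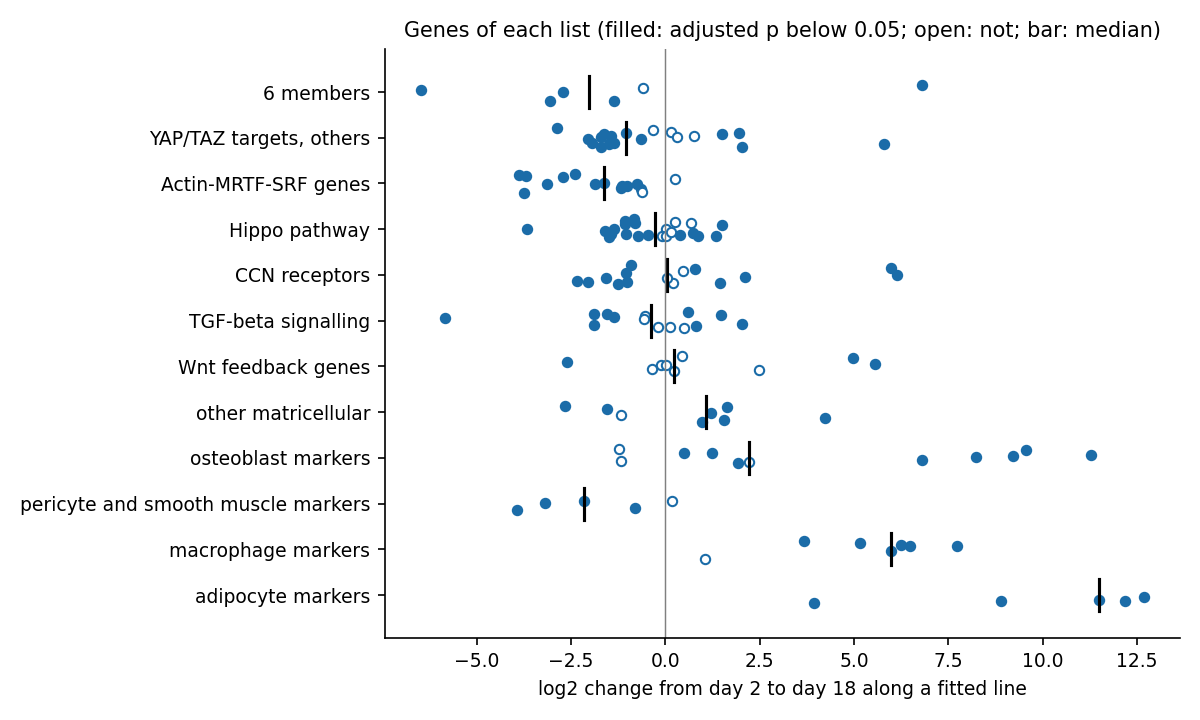
Log2 change from day 2 to day 18 along the fitted line for each tested gene of 12 lists. Filled points passed an adjusted p under 0.05, open points did not, and the bar marks the median of a list. In the actin and SRF list no filled point lies above 0, while the other YAP and TAZ targets have filled points on both sides of 0.

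The labelled cell type was checked on markers, and markers of other cells moved over the same days. Of 12 osteoblast markers 11 were tested, of which 8 rose and 3 did not pass, with Bglap, osteocalcin, going from 1.24 to 208 TPM and Ibsp from 0.581 to 78.4 TPM, while Sost stayed at 0.113 TPM or less. The 3 that did not pass the line were Sp7, osterix, which went from 32.3 TPM on day 2 to 2.77 on day 8 and 10.6 on day 18, Alpl, alkaline phosphatase, which was lowest on day 6 (0.467 TPM) and highest on day 18 (17.6 TPM), and Spp1. The summed level of 7 macrophage markers was 24.1 to 61.7 TPM on early, 68.1 to 451 on middle and 522 to 2014 on late days, and 6 of them rose. Lyz2 alone made up most of that sum on days 2 and 18, at 19.9 and 1855 TPM. All 5 adipocyte markers rose, from a sum of 3.21 to 7.44 TPM on early days to 188 to 407 on late days. The 5 pericyte and smooth muscle markers went from 82.7 to 93.2 TPM on early days to 60.7 to 70.9 on middle and 65.8 to 68.5 on late days. Pdgfrb, the most abundant of them, did not pass (45.8 TPM on day 2 and 57.4 on day 18), whereas the other 4 fell, among them Myh11 from 17.0 to 1.66 TPM, Mcam from 7.61 to 1.37 and Cspg4 from 20.7 to 4.39, with a list median of -2.16. The part of these markers in the changes of Nov, Cyr61, Ctgf, Wisp1 and Ankrd1 was not tested. For Ankrd1, which is abundant in striated muscle, 11 striated muscle markers were summed. Their sum was 6.89 to 8.43 TPM on early, 5.08 (day 12) to 8.38 (day 8) on middle and 3.30 to 4.69 on late days. Ckm was at 0 and Myod1 at 0.0424 TPM or less on every day.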

How the data were processed

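RNA sequencing profiles of sorted mouse calvarial cells on 9 days of differentiation were used, 27 profiles in all. The submitters' processing notes name Bowtie 0.12.9 and RSEM 1.2.8, and the build was NCBIM37. Per the file headers, the authors deposited for each gene an estimated count (RSEM's expected count, in which shared reads are divided and which need not be whole), a TPM and an FPKM value. Amplification of the complementary DNA preceded library construction, and no molecular identifiers are named in the sources used here, so that intervals cover counting error only. The authors' effective length, which converts the count to TPM, is averaged over isoforms and can differ between profiles.

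The members and the gene lists were chosen with earlier results of these data known. TPM values of a profile were scaled so that the 75th percentile over its values above 0 equalled the mean of that percentile across profiles. Estimated counts of the 3 lane profiles of a day were summed and rounded. Symbols were matched through the GENCODE annotation, including older names. The 9 libraries were fitted with edgeR 4.0.16 in R 4.3.3 (quasi-likelihood test with upper-quartile factors, genes kept by filterByExpr at a minimum of 10 counts, Benjamini-Hochberg adjusted p under 0.05 over all genes tested) with a line, a natural spline with 3 degrees of freedom, or 3 windows of days. The common dispersion was 0.000240 between lanes and 0.0581 around the line, which includes departures from the line. Members are described in full, together with the 3 genes most like each by Pearson correlation of log2(TPM + 0.5) over the 9 days and, of each list, the 2 largest rises and the 2 largest falls. Some genes that this rule selects are not reported here. Other list genes that are named were chosen after their values were seen. Alternatives were TMM factors, other count filters, DESeq2 1.42.0, limma 3.58.1, the 27 profiles as separate samples with and without a replicate block, each lane number and each day left out, and TPM or FPKM as deposited. Python 3.11.15 and scipy 1.17.1 were used for the remaining steps.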

Additional observations from a re-analysis of the deposited data

How the results depend on the processing

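In all, 796 values were recomputed under alternatives, of which 749 neither changed direction nor crossed the threshold nor left the set margin, and 5 reversed. For numbers of genes or members called, the margin was a wide fold range. Along the line, 10881 genes and 6 members (27 profiles with the replicate block) counted as unchanged from 8510 genes and 5 members. The directions of Cyr61, Ctgf, Nov, Wisp1 and Ankrd1 along the line, and their calls, held under all 19 alternatives. The replicate numbers did not pair the samples, since deviations of same-numbered profiles correlated at 0.00596 on average. With the 27 profiles as separate samples, the replicate block gave 9561 genes from early to middle days, 5419 from middle to late days with 1 member (Ankrd1), and a line for Wisp2 of -0.59 that passed. Without the block these were 9559 genes, 5630 genes with 1 member, and -0.59. Lanes of 1 library are treated as samples there. From early to middle days, 4848 genes and 5 members were called, and leaving out 1 day or lane number gave 2142 (without day 10) to 6252 genes (without day 8) and 2 to 6 members, with 2888 genes without day 2, 2630 without day 4 and 2173 without day 12. From middle to late days it gave 0 to 353 genes (without day 12), while DESeq2 called 562 and limma 3. The line for Wisp2 lay between -0.93 (without day 2) and -0.37 when 1 day or lane number was left out.

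The reversed values were middle to late changes that had not passed. Without day 8 these were 0.11 for Cyr61, 0.095 for Wisp1 and 0.14 for Wisp2, with lowest values of -0.54, -0.21 and -0.20 when another day or lane number was left out. Wisp1 was also at 0.0022 with limma and Wisp2 at 0.01 without day 14. The cause was not tested. The ratio of the highest to the lowest day moved beyond the lane SD in 9 of 36 recomputed values, at most from 19.5 to 22.9 for Ctgf with counts scaled by library size and TMM factors. With 1 library a day, differences between neighbouring days have no replicate check, and the 92 to 149 counts of Ankrd1 a day from day 10 on limit its precision.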

Other observations

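Markers of cell types not described above also differed over the course, by the same line in day. Of 6 chondrocyte markers 5 were tested, of which 3 rose and 1 fell. Comp, a cartilage and tendon matrix protein, went from 1.29 TPM on day 2 to 79.6 on day 18, and Col2a1, the type II collagen chain, from 111 to 47.8. Of 6 osteoclast markers 5 were tested and 4 rose, among them Acp5 from 0.618 to 16.8 TPM, while Calcr was listed at 0 on every day. Of 5 endothelial markers 3 were tested, of which Tek and Cdh5 rose and Kdr fell, at a summed level of 3.24 to 12.0 TPM over all days, with Tie1 at 0. Of 4 hematopoietic stem and megakaryocyte markers, Pf4 rose from 0.334 to 9.20 TPM, and Itga2b and Gp1bb did not pass. Ppbp, a platelet chemokine, went from 40.1 TPM on day 2 to 0.515 on day 18, a 77.9-fold lower level. It was highest on day 4 (79.3 TPM) and lowest on day 12 (0.104 TPM). Along the fitted line its log2 change was -10.2 (SE 1.33, edgeR adjusted p = 0.000182), a larger decrease than the observed one. Of 11 striated muscle markers 4 were tested, of which Actc1 and Des fell.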
